A study of Mus musculus with 27 samples.

Results

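The 9 genes described here encode proteins of the piRNA pathway. They are the PIWI proteins *Piwil2* and *Piwil4*, the processing factors *Mov10l1*, *Pld6* and *Tdrkh*, the Tudor domain proteins *Tdrd1* and *Tdrd5*, and the germ granule proteins *Asz1* and *Mael*. They were listed by name, with no measured value in the rule, and all 9 had a value in each of 27 RNA-seq libraries. The list was chosen with earlier results of these data known. The number of genes with a value in every library was 19562 in the total RNA experiment, 21520 in the siRNA experiment and 21676 in the inhibitor experiment.

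All libraries came from *Setdb1* conditional knockout (cKO) iMEFs, which are immortalized mouse embryonic fibroblasts, of a single recloned line. Control libraries carried the same conditional allele, and 4-hydroxytamoxifen (4OHT) triggered its deletion. Setdb1 is a histone H3 lysine 9 methyltransferase, and the study asked what silences endogenous retroviruses in these cells with and without it. The total RNA experiment had 3 untreated libraries, 3 harvested on day 5 after the cells had received 4OHT for the first 4 days, and 3 long-term KO libraries, which the labels place more than 2 weeks after 4OHT and the methods describe with a shorter minimum. The siRNA experiment had 2 libraries each of cells with control siRNA (siCtrl), siRNA against *Dnmt1* (siDnmt1), 4OHT + siCtrl and 4OHT + siDnmt1, all harvested on day 6. The inhibitor experiment had 2 libraries each of untreated cells, cells given 150 nM trichostatin A (TSA, a histone deacetylase inhibitor) for 24 h, cells given 1 µM of the MEK inhibitor PD0325901 for the last 24 h, cells on day 6 of 4OHT, and cells given both 4OHT and PD0325901. The labels do not say whether replicates were separate cultures, so p-values measure the spread between these samples, which may be technical.

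PIWI-interacting RNAs (piRNAs) are small RNAs of the germ line. They are cut from long precursors, loaded onto PIWI proteins, and guide these to transposon transcripts, which are cleaved, and in fetal male germ cells to transposon copies, which become DNA-methylated. Many genes of the pathway have promoters that are DNA-methylated in somatic cells, where Dnmt1 copies methylation to the new strand after replication.

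The promoter letters are given because the siRNA experiment acts on DNA methylation, which sits on CG pairs. RefSeq windows of 250 bases before the start (GRCm38.p6) were on hand for 8 of the 9 genes, in 12 windows, and *Piwil2* had none. The median CG count was 6 over all 32851 windows, with quartiles of 2 and 16. The member counts were 40 for *Tdrd5*, 19 for *Tdrkh* and *Mov10l1*, 18 for *Mael*, 15 for *Asz1*, 21 and 14 for *Pld6*, 22, 11 and 3 for *Tdrd1*, and 10 and 0 for *Piwil4*. The letters CACGTG are an E-box, which is bound by complexes with MAX that are known to repress germline genes, and read the same on both strands. They occurred in windows of 4 members, *Mael*, *Mov10l1*, *Tdrd1* and *Pld6*, and in 6.02% of all windows. Here and below, members are counted as genes, some with several windows, and the percentages count windows, so the units differ. The letters GCGGGA, an E2F motif searched on both strands that shares no letters with the E-box here, occurred in windows of 2 members, *Mael* and *Tdrd5*, and in 16.9% of all windows. The windows of the 4 genes with an E-box are shown with the E-box in capitals, and that of *Tdrkh*, the member with the highest level, for contrast. Each matched 1 place on the member chromosomes of mm9, namely chr1:168168876-168169125 (minus strand) for *Mael*, chr15:88813174-88813423 (plus) for *Mov10l1*, chr19:56900515-56900764 (plus) for *Tdrd1*, chr11:59601160-59601409 (minus) for *Pld6* and chr3:94216916-94217165 (plus) for *Tdrkh*.
Mael: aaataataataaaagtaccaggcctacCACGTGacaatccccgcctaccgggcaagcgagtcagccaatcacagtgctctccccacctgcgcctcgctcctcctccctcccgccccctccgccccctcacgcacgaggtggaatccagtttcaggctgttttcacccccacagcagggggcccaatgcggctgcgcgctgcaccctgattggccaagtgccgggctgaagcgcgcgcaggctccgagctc
Mov10l1: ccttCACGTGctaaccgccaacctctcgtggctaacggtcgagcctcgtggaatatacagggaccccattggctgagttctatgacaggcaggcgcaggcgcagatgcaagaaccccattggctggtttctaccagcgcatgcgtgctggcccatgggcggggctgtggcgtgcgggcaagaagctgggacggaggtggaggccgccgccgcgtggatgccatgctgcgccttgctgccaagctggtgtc
Tdrd1: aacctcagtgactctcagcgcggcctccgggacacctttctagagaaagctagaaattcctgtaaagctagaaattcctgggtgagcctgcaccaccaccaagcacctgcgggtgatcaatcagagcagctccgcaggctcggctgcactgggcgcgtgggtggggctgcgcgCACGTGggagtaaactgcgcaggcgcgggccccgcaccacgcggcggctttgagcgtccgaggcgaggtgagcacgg
Pld6: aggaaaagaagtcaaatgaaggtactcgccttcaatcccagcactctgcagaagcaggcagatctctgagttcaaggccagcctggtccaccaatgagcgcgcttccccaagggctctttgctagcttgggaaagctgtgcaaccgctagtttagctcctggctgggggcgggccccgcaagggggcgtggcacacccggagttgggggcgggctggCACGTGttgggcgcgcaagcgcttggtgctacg
Tdrkh: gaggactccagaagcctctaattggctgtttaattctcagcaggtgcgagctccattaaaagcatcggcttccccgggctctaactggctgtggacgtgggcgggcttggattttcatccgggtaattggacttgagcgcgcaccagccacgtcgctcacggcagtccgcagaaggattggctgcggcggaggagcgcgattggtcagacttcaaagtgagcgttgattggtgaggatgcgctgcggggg
The E-box ended 218 bases before the start in *Mael*, 241 in *Mov10l1*, 72 in the *Tdrd1* window shown and 28 in *Pld6*. Another *Tdrd1* window, chr19:56900449-56900698 (plus), held the same E-box, which ended 6 bases before the start of that window. These matches describe letters and show neither a bound site nor a cause, and DNA methylation at these promoters was not analysed here.

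**Figure D1:**
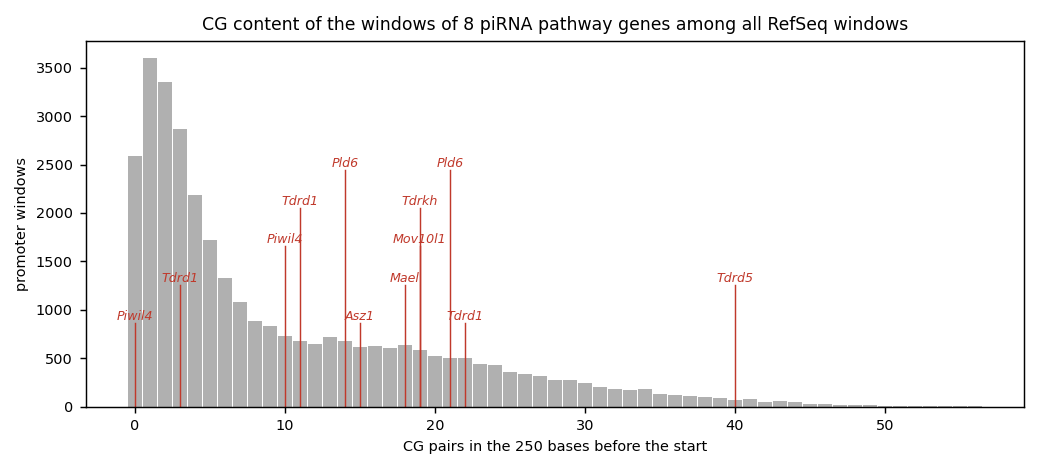
The histogram counts RefSeq promoter windows (y axis) by the number of CG pairs in the 250 bases before the start (x axis). Red lines mark the 12 windows of 8 piRNA pathway genes, which run from 0 for *Piwil4* to 40 for *Tdrd5*, against a median of 6 over all windows.

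*Dnmt1*, the target of the siRNA, was at 80.5 and 73.4 FPKM (fragments per kilobase of transcript and per M mapped fragments) with siCtrl and at 12.2 and 10.6 FPKM with siDnmt1. With 4OHT it was at 78.7 and 78.3 FPKM with siCtrl and at 12.2 and 11.4 FPKM with siDnmt1. *Setdb1* was at 5.95, 5.53 and 5.16 FPKM in untreated total RNA libraries, at 4.16, 4.20 and 6.52 FPKM on day 5 and at 7.24, 7.32 and 6.96 FPKM in long-term KO. These values count the whole gene and cannot show a deletion of some exons, so the 4OHT and KO groups are named here by their labels. *Setdb1* was listed at 0 in both 4OHT + PD0325901 libraries and in 1 of the day 6 libraries, so a value of 0 can be a failed estimate. Implied depth was 36.5 to 40.6 M fragments in the total RNA libraries, 13.8 to 15.7 in the siRNA libraries and 10.9 to 12.7 in the inhibitor libraries. The 2 libraries of 4OHT + siCtrl stood apart from each other, with 11.5% of tested genes at least 2-fold apart, against 2.54% between the siCtrl libraries and 2.45% between the siDnmt1 libraries. All 9 fibroblast markers were at 0.1 FPKM or more in every siRNA library, and 7 to 9 of them in the other groups.

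A single member reached 1 FPKM in untreated and siCtrl fibroblasts. *Tdrkh*, which encodes a mitochondrial Tudor protein that holds PIWI proteins for trimming of the piRNA ends, was above 1 FPKM in all 27 libraries, from 3.53 to 43.4. *Pld6*, a mitochondrial enzyme that processes piRNA precursors, was above 0 in all 27 libraries but never above 0.414 FPKM. *Piwil2* was above 0 in all libraries except 1 of PD0325901. *Asz1* was above 0 in 3 libraries, *Mael* in 4, and *Mov10l1* and *Tdrd1* in 7 each. In bulk RNA, fewer cells with a transcript and less RNA per cell cannot be told apart.

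**Figure D2:**
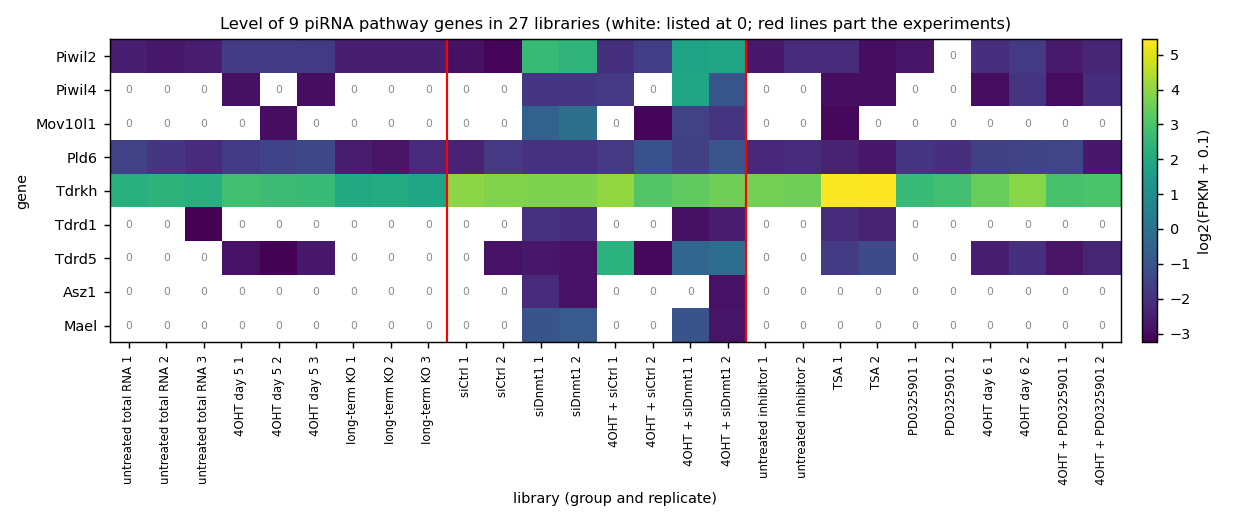
Colour gives the level of each gene as log2(FPKM + 0.1), with the 9 genes in lines and the 27 libraries in columns, and white cells marked 0 are listed at 0. *Tdrkh* is above 1 FPKM in every library, and the siDnmt1 libraries are the only group where all 9 genes are above 0 in both libraries.

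The siDnmt1 libraries show RNA levels after *Dnmt1* knockdown, and whether a change came through DNA methylation was not tested. *Piwil2* had the highest level gained of the 9 members, and *Mov10l1*, *Mael* and *Tdrd1* were listed at 0 with siCtrl and at low levels with siDnmt1, whereas the group means of *Tdrkh* and *Pld6* differed by less than the siCtrl libraries did from each other. In 6 of 9 members both siDnmt1 libraries were above both siCtrl libraries, against 17.7% of all genes. These were *Piwil2*, *Piwil4*, *Mov10l1*, *Tdrd1*, *Asz1* and *Mael*. In 1 member, *Tdrkh*, both were below, against 26.4% of all genes. The members were chosen with earlier results of these data known, so these counts are no support for a change of the pathway. With siDnmt1, *Asz1* rests on about 3 and 1 fragments and *Piwil4* on about 2.3 and 0.1. Of the 2 members that reached 1 FPKM in at least 2 libraries, *Piwil2* was called higher by limma, at an adjusted p under 0.05 and a 2-fold change on log2(FPKM + 0.1), as were 2.36% of the 10693 genes tested. *Piwil2* reached 1 FPKM only in the 4 libraries with siDnmt1 and so had to differ to be tested, and this call is no support for a change.

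*Piwil2*, on chromosome 14 from 70772287 to 70828901 (mm9, minus strand), encodes a PIWI protein that binds piRNAs in male germ cells. It was at 0.0388 and 0.0130 FPKM with siCtrl, which stand for about 3 and 1 fragments. With siDnmt1 it was at 6.06 and 5.20 FPKM, or about 408 and 369 fragments. The 4OHT + siCtrl libraries were at 0.134 and 0.210 FPKM, and the 4OHT + siDnmt1 libraries at 3.29 and 3.53 FPKM. The 4 groups did not overlap, in the order siDnmt1 (5.63 ± 0.604 FPKM, SD, n = 2), 4OHT + siDnmt1 (3.41 ± 0.169), 4OHT + siCtrl and siCtrl.

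On the log2(FPKM + 0.1) scale, which understates the change of low genes, *Piwil2* rose by 5.51 with siDnmt1 (SE 0.30, adjusted p = 0.000479, limma). This log2 fold change was 2.69 with a pseudocount of 1 FPKM and 7.39 with one of 0.01 FPKM. With 4OHT in both arms, *Piwil2* rose by 3.70 with siDnmt1 (SE 0.30, adjusted p = 0.00380, limma), a comparison in which 1.02% of genes were called higher. That call was lost when only the compared libraries entered the fit (adjusted p = 0.0860). Against siCtrl, the 4OHT + siDnmt1 libraries were higher by a log2 fold change of 4.81 (adjusted p = 0.000382, limma), where 8.59% of genes were called higher. Compared with siCtrl, 7 of 9 members were higher in both 4OHT + siDnmt1 libraries, all but *Asz1* and *Tdrkh*, against 28.7% of genes, and *Tdrkh* was lower, as were 19.4% of genes. Compared with 4OHT + siCtrl, 5 members were higher in both, *Piwil2*, *Piwil4*, *Mov10l1*, *Tdrd1* and *Mael*, against 16.2% of genes. These comparisons share the siCtrl or the 4OHT + siDnmt1 libraries and are not independent of each other. The p-values of *Piwil2* in them are no support for a change, since it was tested only through the libraries with siDnmt1. The counts of members are no support either, since the members were chosen with earlier results of these data known.

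With 4OHT + siCtrl, *Piwil2* was above both siCtrl libraries, as were 21.1% of all genes, and its log2 fold change was 1.10 (SE 0.30, adjusted p = 0.0600, limma). No member was called in this comparison, in which 6.08% of genes were, and 1 of 2 members tested had an unadjusted p under 0.05. So did 3490 of the 10693 genes tested. Without 4OHT + siCtrl replicate 1, the log2 fold change of *Piwil2* was 1.31 (adjusted p = 0.0314, limma). The interaction, which is the siDnmt1 effect with 4OHT minus that without, was -1.81 for *Piwil2* (SE 0.43, unadjusted p = 0.00490, adjusted p = 0.286, limma). It was not called, as with 0 of the 2 members tested, where 0.196% of genes were. Without 4OHT + siCtrl replicate 1 it was -2.02 (adjusted p = 0.0440), a call that the full set of libraries did not give.

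*Piwil4*, on chromosome 9 from 14500674 to 14545177 (minus strand), encodes the PIWI protein that acts in the nuclei of fetal male germ cells. It was listed at 0 in both siCtrl libraries and was at 0.170 and 0.173 FPKM with siDnmt1, with deposited intervals that reach 0. With 4OHT + siCtrl it was at 0.188 and 0 FPKM. The 4OHT + siDnmt1 libraries were at 3.56 FPKM (deposited interval 2.03 to 5.09) and 0.427 FPKM (0 to 1.71), so 1 library carries most of this level. The 2 genes annotated on the other strand within *Piwil4*, *Gm10706* and *Gm15586*, cannot be told apart from it if reads were counted without strand.

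*Piwil4* and 5 other members could be tested only when the filter was lowered to 0.1 FPKM, which 8 of 9 members passed. *Mael*, *Tdrd1* and *Mov10l1* passed it only through the knockdown libraries and so had to differ, and their calls are no support for a change of the pathway. *Piwil2*, *Piwil4* and *Tdrd5* reached 0.1 FPKM in no siCtrl library, so calls of theirs against siCtrl are no support either. In that fit, *Piwil2*, *Mov10l1* (adjusted p = 0.00377, limma), *Mael* (adjusted p = 0.0493) and *Tdrd1* (adjusted p = 0.0379) were called higher with siDnmt1, where 3.12% of the 13118 genes were. *Piwil4* was not called with siDnmt1 (adjusted p = 0.391, limma). It was called in 4OHT + siDnmt1 against siCtrl (adjusted p = 0.0261, limma), where 10.4% of genes were called higher, a call lost without 4OHT + siDnmt1 replicate 1 (adjusted p = 0.0687) and without either siCtrl library (adjusted p = 0.111 and 0.119).

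**Figure D3:**
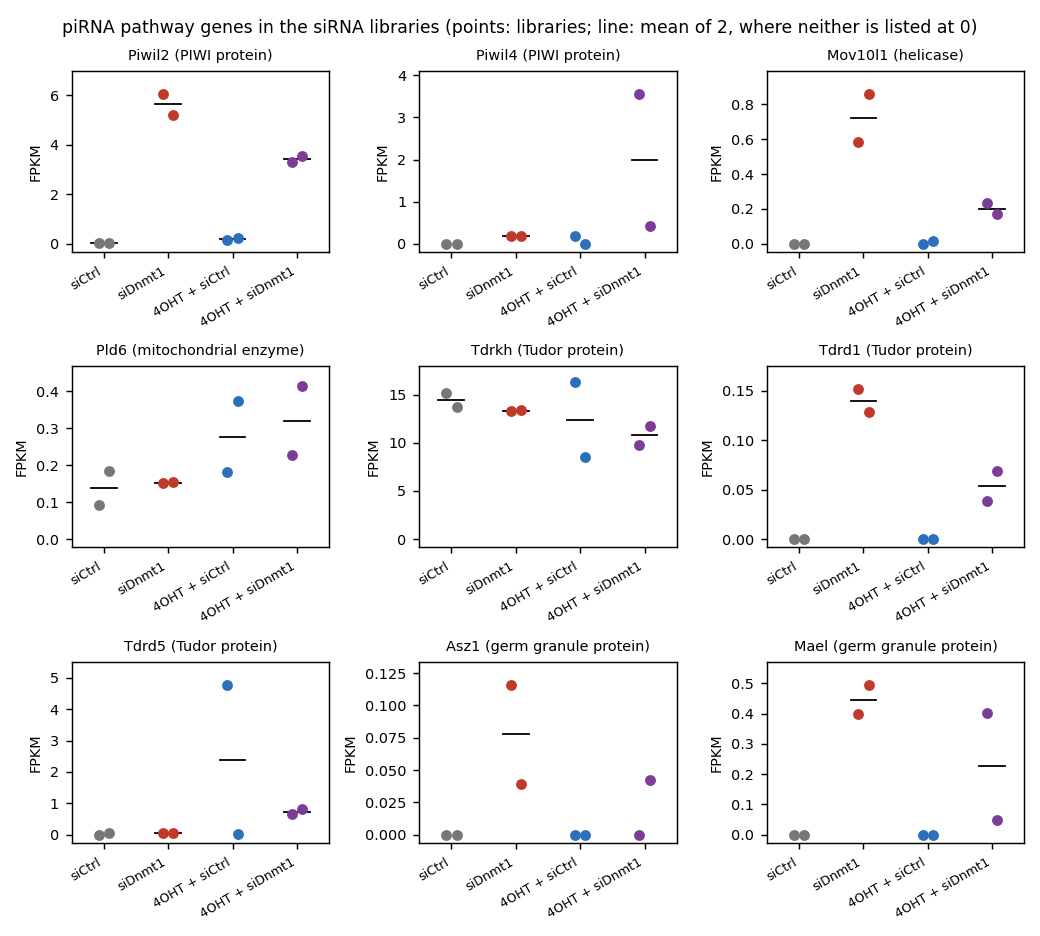
Each panel plots the FPKM (y axis) of 1 gene in the 8 siRNA libraries, with a point for each library and a line at the mean of 2 where neither is listed at 0. *Piwil2* is at 6.06 and 5.20 with siDnmt1 and *Mov10l1* at 0.584 and 0.860, whereas *Tdrkh* lies between 8.49 and 16.3 in all groups.

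*Mov10l1*, on chromosome 15 from 88813339 to 88885582 (plus strand), encodes a helicase that feeds piRNA precursors into processing. It was listed at 0 in both siCtrl libraries and was at 0.584 and 0.860 FPKM with siDnmt1, or about 37.6 and 53.9 fragments. It was at 0 and 0.0152 FPKM with 4OHT + siCtrl, and at 0.234 and 0.168 FPKM with 4OHT + siDnmt1. Both groups with siDnmt1 were thus above every siRNA library without it, and the siDnmt1 libraries were above the 4OHT + siDnmt1 libraries. The interaction of *Mov10l1* had an unadjusted p of 0.00945 and an adjusted p of 0.297 (limma, 0.1 FPKM filter). Its paralog *Mov10*, an RNA helicase of somatic cells, was at 15.5 and 17.0 FPKM with siCtrl and at 18.2 and 20.2 FPKM with siDnmt1. *Mov10* was called higher in 4OHT + siDnmt1 against siCtrl, at a log2 fold change of 1.44 (SE 0.28, adjusted p = 0.0120, limma).

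*Pld6*, on chromosome 11 from 59597399 to 59601147 (minus strand), was at 0.0926 and 0.186 FPKM with siCtrl and at 0.151 and 0.154 FPKM with siDnmt1, between the siCtrl values. It was at 0.183 and 0.373 FPKM with 4OHT + siCtrl and at 0.228 and 0.414 FPKM with 4OHT + siDnmt1. It was not called in the siRNA experiment at either filter. An E-box stands in 1 of its windows, as in those of *Mael*, *Mov10l1* and *Tdrd1* shown above. *Tdrkh*, on chromosome 3 from 94217218 to 94236555 (plus strand), was at 15.1 and 13.7 FPKM with siCtrl and at 13.3 and 13.4 FPKM with siDnmt1. Its log2 fold change with siDnmt1 was -0.11 (SE 0.29, adjusted p = 0.849, limma), less than the siCtrl libraries differed from each other. It was at 16.3 and 8.49 FPKM with 4OHT + siCtrl, a spread that covers every other siRNA library.

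*Tdrd1*, on chromosome 19 from 56900699 to 56944502 (plus strand), encodes a scaffold of the cytoplasmic granules in which PIWI proteins work. It was listed at 0 in all 4 libraries with siCtrl, at 0.152 and 0.129 FPKM with siDnmt1 and at 0.0384 and 0.0692 FPKM with 4OHT + siDnmt1. The siDnmt1 values rest on about 9.1 and 7.2 fragments. *Mael*, on chromosome 1 from 168131516 to 168168875 (minus strand), encodes a germ granule protein needed for transposon silencing in testis. It was listed at 0 in all 4 libraries with siCtrl, at 0.398 and 0.495 FPKM with siDnmt1 (about 9 and 11 fragments) and at 0.403 and 0.0484 FPKM with 4OHT + siDnmt1 (about 9 and 1 fragments). The calls of both genes with siDnmt1 were lost whenever 1 library was left out, with adjusted p from 0.206 to 0.246 for *Mael* and from 0.156 to 0.191 for *Tdrd1*.

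*Asz1*, on chromosome 6 from 18000964 to 18059061 (minus strand), encodes a protein of the germ granules near mitochondria. It was at 0.116 and 0.0393 FPKM with siDnmt1, or about 3 and 1 fragments, at 0 and 0.0423 FPKM with 4OHT + siDnmt1, and listed at 0 in 24 libraries in all. It did not pass the 0.1 FPKM filter and was not tested.

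*Tdrd5*, on chromosome 1 (minus strand), encodes a Tudor protein needed for the assembly of germ granules in male germ cells. It was at 0 and 0.0415 FPKM with siCtrl, at 0.0548 and 0.0409 FPKM with siDnmt1 and at 0.652 and 0.816 FPKM with 4OHT + siDnmt1. The 4OHT + siCtrl libraries were at 4.78 and 0.0198 FPKM. In the library at 4.78 FPKM the assembled locus of *Tdrd5* reached past the end of 158233737 that it had in the 4OHT + siDnmt1 libraries, and the part of this difference in the value was not tested. Against 4OHT + siCtrl, 4OHT + siDnmt1 gave a log2 fold change of 0.12 for *Tdrd5*, which was 2.79 without 4OHT + siCtrl replicate 1 and -2.55 without replicate 2, so no direction can be given.

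In the total RNA experiment, *Setdb1* deletion was compared at an early and a late time. On day 5, the 3 libraries of *Piwil2*, *Tdrkh* and *Tdrd5* were each above the 3 untreated libraries, as were 16.4% of all genes. In long-term KO, no member was above the untreated libraries in all 3 libraries, against 24.1% of genes, and 2 members, *Tdrkh* and *Pld6*, were below, against 17.1%. From day 5 to long-term KO, 4 members were lower with no overlap, *Piwil2*, *Pld6*, *Tdrkh* and *Tdrd5*, against 19.8% of genes. The only member tested at 1 FPKM, *Tdrkh*, passed the adjusted p in all 3 comparisons but stayed under a 2-fold change. No member was therefore called, where 3.43% of genes were on day 5, 14.2% in long-term KO against untreated and 12.8% in long-term KO against day 5. An unadjusted p under 0.05 was found for 1 of 1 member tested in each, and for 4102, 6232 and 6123 of the 8863 genes. In the same order, 3318, 6020 and 5891 genes passed the adjusted p without the fold limit.

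*Tdrkh* was at 4.58, 5.03 and 4.56 FPKM in untreated libraries (4.72 ± 0.270, SD, n = 3), at 6.88, 6.43 and 6.15 on day 5 (6.49 ± 0.365) and at 4.02, 4.22 and 3.53 in long-term KO (3.92 ± 0.354). The 3 groups did not overlap. The log2 fold change against untreated libraries was 0.45 on day 5 (SE 0.08, adjusted p = 0.00307, limma) and -0.26 in long-term KO (adjusted p = 0.0170), with shared untreated libraries. From day 5 to long-term KO it was -0.71 (adjusted p = 8.98e-05, limma). An exact permutation test of 3 against 3 cannot go below p = 0.1.

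*Piwil2* was at 0.0734, 0.0545 and 0.0664 FPKM in untreated libraries (0.0648 ± 0.00953, SD, n = 3), at 0.205, 0.208 and 0.193 on day 5 (0.202 ± 0.00772) and at 0.0732, 0.0755 and 0.0722 in long-term KO (0.0737 ± 0.00167). The deposited interval of untreated replicate 1 ran from 0 to 1.07 FPKM and so takes in the day 5 values. By FPKM alone, the day 5 libraries of *Piwil2* stood above all others, and the long-term KO and untreated libraries overlapped. At the 0.1 FPKM filter, its log2 fold change was 0.88 on day 5 (SE 0.11, adjusted p = 0.000589, limma) and -0.80 from day 5 to long-term KO (adjusted p = 0.000316), both under 2-fold on this scale. The pseudocount keeps these values under 2-fold, since the ratio of means was 3.12 on day 5, and with a pseudocount of 0.01 FPKM *Piwil2* was called in both (1.51, adjusted p = 0.00115, and -1.34, adjusted p = 0.000770, limma). It reached 0.1 FPKM only in the 3 day 5 libraries and so had to differ to be tested, and these p-values are no support for a change.

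*Pld6* was at 0.234, 0.171 and 0.125 FPKM in untreated libraries, at 0.201, 0.256 and 0.283 FPKM on day 5, and at 0.0709, 0.0447 and 0.114 FPKM in long-term KO. Every long-term KO library was below every other library of this experiment. From day 5 to long-term KO, its log2 fold change was -0.98 at the 0.1 FPKM filter (adjusted p = 0.00358, limma), just under 2-fold. Its mean level was 3.22 times lower, and the log2 fold change was -1.63 with a pseudocount of 0.01 FPKM (adjusted p = 0.00482, limma), which is a call. *Pld6* was also called with median-ratio scaling, without day 5 replicate 1 (-1.08) and without long-term KO replicate 3 (-1.13). Against untreated libraries it was called with the 0.01 FPKM pseudocount (-1.15, adjusted p = 0.0237, limma) but not with 0.1 FPKM (-0.65, adjusted p = 0.0247). *Tdrd5* was listed at 0 in all untreated and long-term KO libraries and was at 0.0392, 0.00804 and 0.0530 FPKM on day 5. *Piwil4* was at 0.0378, 0 and 0.0301 FPKM on day 5 and at 0 otherwise. *Mov10l1* was above 0 only in day 5 replicate 2 (0.0309 FPKM) and *Tdrd1* only in untreated replicate 3 (0.00483 FPKM), and *Asz1* and *Mael* were listed at 0 throughout.

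**Figure D4:**
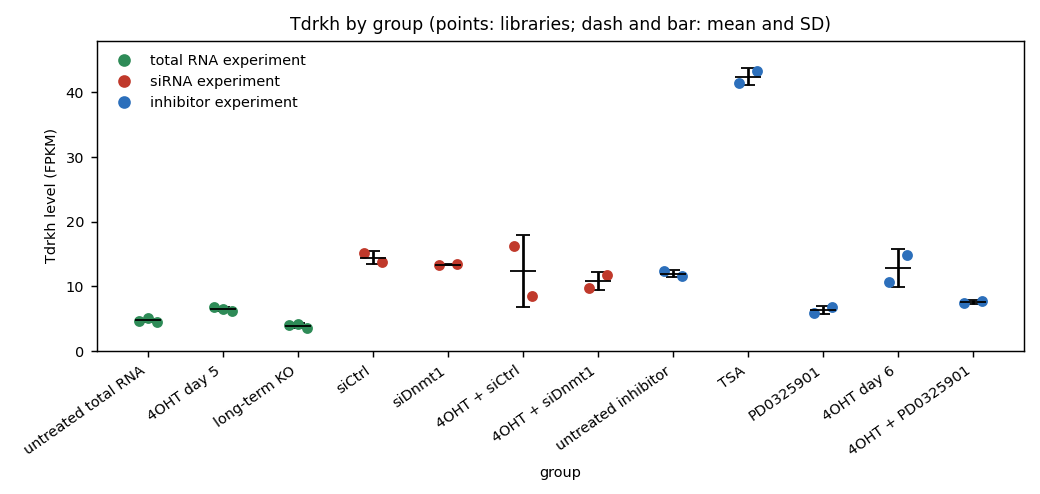
The level of *Tdrkh* in FPKM (y axis) is plotted for the 12 groups of the 3 experiments (x axis), with a point for each library and the mean with its SD. The TSA libraries at 41.5 and 43.4 lie above all others, and levels should be compared only within an experiment.

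In the inhibitor experiment, *Tdrkh* rose with TSA and was the only member called at 1 FPKM. It was at 12.3 and 11.5 FPKM in untreated libraries (11.9 ± 0.560, SD, n = 2) and at 41.5 and 43.4 FPKM with TSA (42.4 ± 1.28), a ratio of means of 3.56. The log2 fold change was 1.82 (SE 0.17, adjusted p = 9.21e-05, limma), in a comparison in which 19.3% of genes were called higher and 12.8% lower. The assembled *Tdrkh* locus ended at 94237148 and 94237005 in the TSA libraries and at 94235421 in untreated libraries. *Oaz3*, an antizyme gene known from spermatids, is annotated next to it on the other strand from 94237088 to 94240538. It was at 12.5 and 10.2 FPKM with TSA and at 0 and 0.526 FPKM without. Of the 2 TSA loci, only the one that ended at 94237148 reached into *Oaz3*. Without TSA, the locus of untreated total RNA replicate 3 also did, with its end at 94237378. Those of untreated replicates 1 and 2 did not (94236839 and 94236813). The share of *Tdrkh* reads that came from *Oaz3* was not tested.

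With TSA, *Tdrd1* was at 0.124 and 0.0928 FPKM, *Tdrd5* at 0.197 and 0.320 FPKM and *Piwil4* at 0.0298 and 0.0298 FPKM, and each was listed at 0 in both untreated libraries. Together with *Tdrkh*, 4 of 9 members were thus higher in both TSA libraries, against 35.7% of all genes. *Tdrd5* was called at the 0.1 FPKM filter (adjusted p = 0.000962, limma), where 24.4% of genes were called higher and the median log2 fold change over all genes was 0.24. It reached 0.1 FPKM only in both TSA libraries and 1 day 6 library, so it had to differ to be tested and the call is no support for a change. It lost the call under quantile normalization (adjusted p = 0.169), under which *Piwil2* and *Pld6* were called lower (log2 fold changes of -1.10 and -1.28, adjusted p = 0.0215 and 0.0242, limma). *Pld6* was lower in both TSA libraries, at 0.0926 and 0.0551 against 0.107 and 0.118 FPKM, as were 21.4% of genes. *Piwil2* was at 0.123 and 0.0308 FPKM with TSA and at 0.0600 and 0.116 FPKM without, and the groups overlapped. *Asz1* and *Mael* were listed at 0 in all 10 inhibitor libraries, and *Mov10l1* was above 0 only in TSA replicate 1 (0.0188 FPKM). *Tdrd3*, a Tudor gene outside the pathway, fell by 2.24 on the log2 scale with TSA (SE 0.30, adjusted p = 0.000535, limma).

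With PD0325901, *Tdrkh* was at 5.95 and 6.84 FPKM (6.39 ± 0.631, SD, n = 2), below both untreated libraries. The log2 fold change of -0.89 stayed under 2-fold (adjusted p = 0.0138, limma). The deposited header of PD0325901 replicate 2 names another library than its label, and without it the log2 fold change was -0.99 (adjusted p = 0.0287, limma). With any other library of the 2 groups left out, the adjusted p was 0.0740 to 0.0992. In 4OHT + PD0325901 it was at 7.41 and 7.79 FPKM, against 10.7 and 14.9 FPKM on day 6 of 4OHT without the inhibitor, a log2 fold change of -0.72 (adjusted p = 0.0434, limma), also under 2-fold. *Tdrkh* and *Piwil2* were below the group without inhibitor in both libraries in both comparisons, as were 22.8% and 12.8% of genes. No member was called, where 7.23% and 3.79% of genes were, and an unadjusted p under 0.05 was found for the 1 member tested in each. It was also found for 3328 and 2583 of the 11434 genes tested. *Pld6* was above both untreated libraries with PD0325901, at 0.165 and 0.142 FPKM, as were 15.5% of genes. *Piwil2* was at 0.0462 and 0 FPKM with PD0325901 and at 0.0602 and 0.0999 FPKM with 4OHT + PD0325901.

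On day 6 of 4OHT, *Tdrkh* was at 10.7 and 14.9 FPKM, on either side of both untreated libraries. On the log2 scale the groups differed by 0.08 (adjusted p = 0.768, limma). *Piwil2* (0.136 and 0.190 FPKM), *Pld6* (0.227 and 0.261), *Tdrd5* (0.0723 and 0.138) and *Piwil4* (0.0292 and 0.168) were above both untreated libraries, as were 21.8% of all genes. No member was called at 1 FPKM, where 11.1% of genes were, and none had an unadjusted p under 0.05, against 4340 of the 11434 genes tested. At the 0.1 FPKM filter, *Tdrd5* was called (adjusted p = 0.0352, limma), where 4.73% of genes were called higher, a call lost without either untreated library (adjusted p = 0.142 and 0.146). Here too it was tested only through libraries in which it is high. *Piwil2* thus stood above untreated cells with 4OHT on day 5 and on day 6 and was called in neither at a pseudocount of 0.1 FPKM, with an adjusted p = 0.351 on day 6.

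A list of 19 other pathway genes was read beside the members. With siDnmt1, 2 of the 6 tested at 1 FPKM were called higher, against 2.36% of all genes, and none lower. *Gtsf1*, a PIWI partner, was listed at 0 in both siCtrl libraries, at 10.0 and 8.87 FPKM with siDnmt1 and at 17.6 in each 4OHT + siDnmt1 library. *Tex15*, a factor of piRNA-directed silencing, was at 0.0668 and 0.0745 FPKM with siCtrl and at 1.10 and 1.08 FPKM with siDnmt1, a log2 fold change of 2.80 (SE 0.30, adjusted p = 0.00585, limma). At the 0.1 FPKM filter, 5 of 12 were called higher, against 3.12% of all genes, which added *Gpat2* (0.660 and 0.820 FPKM with siDnmt1, listed at 0 with siCtrl), *Fkbp6* (0.393 and 0.390, listed at 0 with siCtrl) and *Tdrd9* (0.335 and 0.170 FPKM against 0.0132 and 0.0133). As with the members, genes that enter through the knockdown libraries had to differ. *Gtsf1* and *Tex15* reached 1 FPKM in no siCtrl library, and *Gpat2*, *Fkbp6* and *Tdrd9* reached 0.1 FPKM in none. These counts and calls are therefore no support for a change of the pathway. With 4OHT + siCtrl, 3 of the 6 tested at 1 FPKM were called higher, against 2.6% of genes. In 4OHT + siDnmt1 against siCtrl, 4 were, against 8.59%. In the total RNA experiment at 0.1 FPKM, 4 of 9 were called higher on day 5, against 3.16% of genes. In long-term KO against untreated, 3 were, against 9.54%. Genes can enter these fits too through the groups where they are high. *Tex19.1*, a germline gene known for its DNA-methylated promoter, was at 25.0 and 23.6 FPKM with siDnmt1 and at 0.0398 and 0.0799 FPKM with siCtrl. It had no value of its own in 1 library and was not tested in the siRNA experiment. In total RNA at the 0.1 FPKM filter it was called higher on day 5 (2.58, adjusted p = 4.84e-05, limma) and in long-term KO (1.01, adjusted p = 0.00227). It reached 0.1 FPKM in every library of both groups but not in every untreated library, so these calls are no support for a change. *Piwil1*, the third mouse PIWI gene, was listed at 0 in all 27 libraries.

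The groups with siDnmt1 were also read with and without 4OHT, a difference that was not tested. The interaction given below also takes in the groups with siCtrl and is not a test of that difference. *Piwil2*, *Mov10l1*, *Tdrd1*, *Gpat2* and *Fkbp6* were lower in both 4OHT + siDnmt1 libraries than in the siDnmt1 libraries, whereas *Gtsf1*, *Tex15* and *Tdrd9* were higher in both. The share of all genes that separate in this way was not computed, so these lists are no result about the pathway. The interaction was called for none of the 6 other pathway genes tested at 1 FPKM, and none had an unadjusted p under 0.05. At 0.1 FPKM it was called for none of 12, where *Gpat2* (-1.39, unadjusted p = 0.00724, adjusted p = 0.279, limma) and *Fkbp6* (-1.38, unadjusted p = 0.0124, adjusted p = 0.325) were under 0.05 before adjustment. So were 1366 of the 13118 genes tested. *Tdrd9*, a helicase gene of the pathway, was called with 4OHT alone, at 2.42, 2.68 and 2.62 FPKM on day 5, from 0 to 0.00490 FPKM in untreated libraries and from 0.471 to 0.737 FPKM in long-term KO. In this experiment it reached 1 FPKM only on day 5 and so had to differ to be tested, and the call is no support for a change. *Tdrd7*, a Tudor gene that is also used outside the germ line, rose on day 5 by a log2 fold change of 1.02 (SE 0.05, adjusted p = 6.01e-06, limma).

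**Figure D5:**
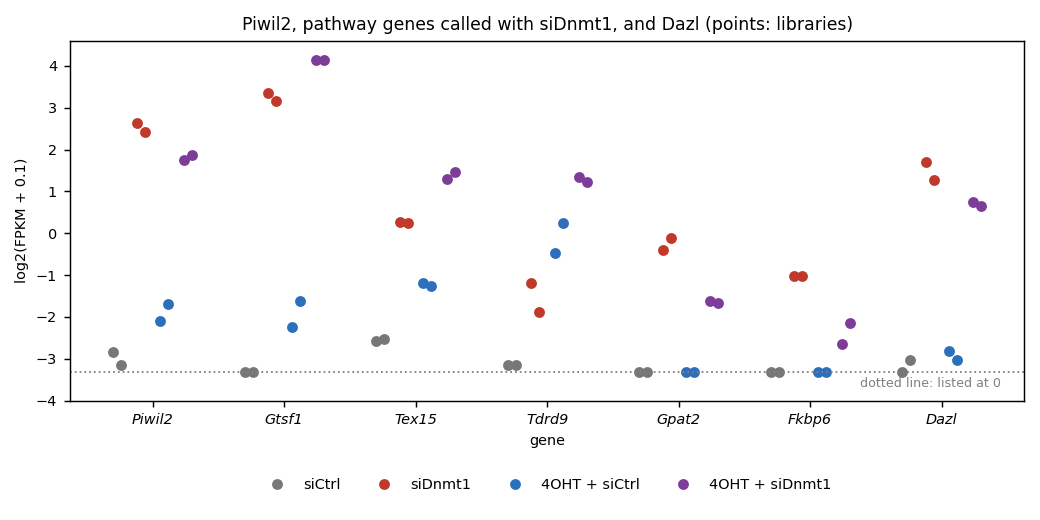
The level as log2(FPKM + 0.1) (y axis) is plotted for *Piwil2*, other pathway genes called with siDnmt1 and *Dazl* (x axis), with a point for each of 8 siRNA libraries and a dotted line where a gene is listed at 0. *Gtsf1* reaches 17.6 FPKM with 4OHT + siDnmt1, above its siDnmt1 libraries, whereas *Piwil2* and *Dazl* are highest with siDnmt1.

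Markers of germ and pluripotent cells were read because the same transcripts could come from such cells. Of 14 markers, 4 were at 0.1 FPKM or more in both siCtrl libraries, 6 with siDnmt1 and 7 with 4OHT + siDnmt1. Their summed level was 2.28 to 2.66 FPKM with siCtrl, 4.94 to 14.4 with 4OHT + siCtrl, 7.16 to 7.31 with siDnmt1 and 8.57 to 14.6 with 4OHT + siDnmt1. *Dazl*, an RNA-binding protein of germ cells, was at 0 and 0.0226 FPKM with siCtrl, at 3.15 and 2.30 FPKM with siDnmt1 and at 1.58 and 1.48 FPKM with 4OHT + siDnmt1. *Sycp1*, of the meiotic synaptonemal complex, was at 0.0377 and 0.0379 FPKM with siCtrl and at 0.627 and 0.812 FPKM with siDnmt1. *Dppa3*, *Nanos2* and *Sycp3* were listed at 0 in all 8 siRNA libraries. The summed level of 5 testis cell markers was 1.97 to 2.11 FPKM with siCtrl and 7.57 to 7.78 FPKM with siDnmt1. With 4OHT + siCtrl it was 4.25 to 4.33 FPKM and with 4OHT + siDnmt1 6.52 to 10.1 FPKM. Of these markers, only *Gata4* and *Sox9* were at 0.1 FPKM or more in both libraries of siCtrl, of siDnmt1 and of 4OHT + siCtrl. With 4OHT + siDnmt1, *Amh* was as well. The summed level of 9 fibroblast markers was 4960 to 5060 FPKM with siCtrl, 4047 to 4220 with siDnmt1, 2326 to 3659 with 4OHT + siCtrl and 2387 to 2429 with 4OHT + siDnmt1. The part of other cell types in the member levels was not tested.

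By pattern over the 8 siRNA libraries, the tested genes most like *Piwil2* were *Gm10845*, *Dazl* and *3830403N18Rik*, with root mean square differences of 0.39, 0.45 and 0.51 on the log2 scale after each gene's mean was taken off. Those most like *Tdrkh* were *Foxp1*, *Med13l* and *Slc19a1*, with 0.06, 0.06 and 0.10.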

How the data were processed

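Reads had been aligned by the authors to mm9 (TopHat2 2.0.12), and the deposited FPKM and their confidence intervals are those of Cufflinks assemblies of single libraries. Total RNA was rRNA-depleted. Their tables of comparisons hold fold changes and p-values and were not used. Strand use in counting was not given in the sources used here. The deposited header of PD0325901 replicate 2 names another library, and its sample label was followed.

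Total RNA libraries carry no gene names, so their loci were named by position where they covered 95% of a gene. The 3 experiments were fitted separately in limma 3.58.1 (R 4.3.3), with trend and all groups, on log2(FPKM + 0.1), and p-values were two-sided and Benjamini-Hochberg adjusted over all genes tested (1 FPKM or more in 3 libraries for total RNA, otherwise in 2). The study used Cuffdiff, which needs reads. Calls needed an adjusted p under 0.05 and a 2-fold change. Fragments were computed from FPKM and interval, and depth limits detection. The procedure was tested on simulated data. The members, lists and promoter letters were chosen with earlier results of these data known. Named were the members, targeted genes, 2 paralogs, listed pathway genes that were called or on which a result turns, marker genes, the 3 genes most like each tested member, and, after its values were seen, *Oaz3*. Python 3.11.15, numpy 2.4.6, pandas 2.3.3 and matplotlib 3.10.9 were used.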

Additional observations from a re-analysis of the deposited data

Results flagged for a closer look

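*Tdrkh* moved to opposite sides of the untreated total RNA libraries after *Setdb1* deletion, with every day 5 library above and every long-term KO library below. The log2 difference between long-term KO and day 5 was -0.71 (adjusted p = 8.98e-05, limma), from means of 6.49 FPKM on day 5 and 3.92 FPKM in long-term KO around an untreated mean of 4.72 FPKM (n = 3 each). It lay between -0.77 and -0.64 when single libraries were left out. Long-term KO against untreated lay between -0.32 and -0.19, with adjusted p from 0.0121 to 0.0581 (limma). In the other experiments the log2 fold change of *Tdrkh* was 0.08 on day 6 of 4OHT and -0.29 with 4OHT + siCtrl. The share of all genes that move to opposite sides was not computed.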

How the results depend on the processing

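Low levels are the main limit, since most members rest on a few fragments, where 1 read pair moves a value and the pseudocount sets the log2 fold change. Of 844 recomputed log2 fold changes of members, 752 changed neither sign nor side of the threshold, 32 lost a call, 32 gained one and 28 changed sign, 2 of them as calls, and where not stated the cause was not tested. Both such calls were of *Tdrd5*. With single libraries left out, its interaction ran from -2.87 to 2.48 around -0.19, and its change in 4OHT + siDnmt1 against 4OHT + siCtrl from -2.55 to 2.79 around 0.12, both ends by leaving out a 4OHT + siCtrl library. The latter was -0.49 with a pseudocount of 1 and -0.21 under quantile normalization.

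The other sign changes were between values that were not called. Under quantile normalization they were -0.16 for *Piwil2* in long-term KO against untreated, -0.14 for *Piwil4* with TSA, and for *Pld6* -0.18 with siDnmt1, -0.25 in 4OHT + siDnmt1 against 4OHT + siCtrl and -0.068 for the interaction. With single libraries left out, *Tdrkh* ran from -0.76 to 0.18 with 4OHT + siCtrl, from -0.60 to 0.33 in 4OHT + siDnmt1 against 4OHT + siCtrl, from -0.49 to 0.44 for the interaction and from -0.15 to 0.31 on day 6. *Pld6* ran from -0.18 to 0.39 with siDnmt1, from -0.20 to 0.54 in 4OHT + siDnmt1 against 4OHT + siCtrl, from -0.31 to 0.43 for the interaction and from -1.10 to 0.11 with 4OHT + PD0325901. *Piwil2* ran from -0.51 to 0.26 with TSA and *Piwil4* from -0.64 to 0.41 with 4OHT + PD0325901.

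Members called numbered 0 at 4OHT day 5, in both long-term KO comparisons, with PD0325901 and with 4OHT + PD0325901, and 1 in each without the fold limit. With 4OHT + siCtrl, 0 became 1 with a pseudocount of 0.01 and 0 to 1 with libraries left out, as for the interaction. With siDnmt1, 1 became 3 with no filter and 4 at 0.1 FPKM, where more genes are tested. In 4OHT + siDnmt1 against siCtrl, 1 became 2 and 3 in these settings, and against 4OHT + siCtrl it became 0 with only the compared groups in the fit. With no filter and at 0.1 FPKM, 1 became 3 and 2 with TSA, and on day 6, 0 became 1 at 0.1 FPKM.

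Genes called without the fold limit were 3318 at day 5, 6020 in long-term KO against untreated, 5891 against day 5, 846 with siDnmt1, 1466 with 4OHT + siCtrl, 3601 in 4OHT + siDnmt1 against siCtrl, 6385 with TSA, 1571 with PD0325901, 2848 at day 6 and 798 with 4OHT + PD0325901. With no filter they were 471 at day 5, 354 with 4OHT + siCtrl, 73 for the interaction, 538 with PD0325901 and 270 with 4OHT + PD0325901. At 0.1 FPKM they were 497 at day 5 and 232 in 4OHT + siDnmt1 against 4OHT + siCtrl, and a pseudocount of 1 gave 37 for the interaction. With only the compared groups in the fit they were 952 with siDnmt1, 108 with 4OHT + siCtrl, 35 in 4OHT + siDnmt1 against 4OHT + siCtrl and 60 with 4OHT + PD0325901.

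Fits that left out 1 library called 88 to 119 genes with siDnmt1, 105 to 1123 with 4OHT + siCtrl, 805 to 1388 in 4OHT + siDnmt1 against siCtrl, 78 to 869 against 4OHT + siCtrl, 11 to 469 for the interaction, 336 to 875 with PD0325901, 669 to 1129 at day 6 and 275 to 406 with 4OHT + PD0325901. Where an arm kept 1 library, it was assumed to vary like the other groups. In the 3 comparisons with 4OHT + siCtrl, leaving out its replicate 1 gave the highest count.

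Replicate numbers were not taken to pair the samples, since deviations of same-numbered libraries correlated between -0.07 and 0.03 in the siRNA experiment and -0.04 and 0.11 in the total RNA experiment. In the inhibitor experiment the correlations were 0.23, 0.21 and 0.25 among PD0325901, day 6 and 4OHT + PD0325901, each over 2 libraries a group with no pairing in the labels, and -0.02 to 0.04 in all other pairs of groups. With the replicate block, *Tdrkh* had an adjusted p = 0.0376 in 4OHT + PD0325901 against day 6 (limma). With a replicate block, 79 genes were called in 4OHT + siDnmt1 against 4OHT + siCtrl and 13 for the interaction, and the count of members called at 1 FPKM stayed the same in all comparisons. At 0.1 FPKM, *Mael* and *Tdrd1* lost their calls with siDnmt1 under the block (adjusted p = 0.0772 each, limma), as they did with a pseudocount of 1 (0.0660 and 0.0919) and quantile normalization (0.0661 and 0.0507). *Mov10l1* fell under 2-fold with siDnmt1 at a pseudocount of 1 (0.78).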
